A study of Homo sapiens and Mus musculus with 15 samples.

Results

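Scleral-type fibroblasts are here the 2860 fibroblasts of a mouse single-cell RNA-seq dataset that carried at least 3 transcripts of Comp, Fmod, Col12a1 and Itgbl1 in sum. They came from 30865 cells of the eye cup that passed the quality filters, of which 14674 passed a fibroblast gate. The gate kept cells in which Col1a1, Col1a2, Dcn and Lum made up at least 0.3% of the transcripts (counted as unique molecular identifiers, UMIs), in which 6 genes of the retinal pigment epithelium (RPE) made up under 3%, and which held no UMI of the leukocyte gene Ptprc or the endothelial gene Cldn5. The other 11814 gated cells, called other fibroblasts below, served as the comparison. As the 4 selection genes and the 4 gate genes chose the cells, their values in the scleral-type fibroblasts are a description and no finding.

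The study harvested RPE from C57BL/6J mice aged 3 months and 24 months, dissociated the eye cup with papain after the retina had been removed, and made 1 droplet library for each age with a 10x Genomics 5′ kit. The label for condition of the 3-month library reads "Old sample", whereas its age label reads 3 months, and the group was taken from the age label. How many mice went into each library is not given in the sources used here. Another experiment treated old mice without or with TRULI, which blocks the LATS kinases of the Hippo pathway, and sequenced bulk RNA taken from the eye cup with lysis buffer, with 2 libraries for each condition. With 1 single-cell library for each age there was no replicate of an age, so differences between the ages have no test, and all intervals of single-cell values below are exact 95% intervals that cover counting error only.

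The sclera is the tough outer coat of the eye, and its fibroblasts live among the collagen lamellae that they build and maintain. Dense connective tissues of this kind, such as sclera, tendon and ligament, consist of type I collagen fibrils whose width and spacing are set by fibril-associated collagens and small leucine-rich proteoglycans. Of the selection genes, Comp encodes cartilage oligomeric matrix protein, which links collagen fibrils, Fmod encodes fibromodulin, a small leucine-rich proteoglycan of tendon and sclera, and Col12a1 encodes the chain of the fibril-associated type XII collagen. Itgbl1 encodes a secreted protein that resembles the integrin beta chains.

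The scleral-type fibroblasts were 2027 of 9080 gated cells at 3 months (22.3%, 21.5 to 23.2) and 833 of 5594 at 24 months (14.9%, 14.0 to 15.9). Itgbl1 was the selection gene found most often, with a UMI in 94.7% of them at 3 months and 93.3% at 24 months. Col12a1 was found in 60.3% and 61.7%, Fmod in 34.6% and 43.3%, and Comp in 32.5% and 24.4%. A UMI of Comp or Fmod was present in 1067 of the 2027 cells at 3 months (52.6%) and in 439 of the 833 at 24 months (52.7%), and UMIs of both were present in 292 (14.4%) and 125 (15.01%). Of the remaining cells, 442 and 176 carried Itgbl1 alone, 482 and 196 carried Itgbl1 with Col12a1, and the few others carried Col12a1 alone. The name of these cells by Comp and Fmod therefore held for about as many cells with a UMI of either gene as without. Of the markers written down for these cells, Myoc was the only one that did not choose them, and it was found in 54.3% of them at 3 months and 42.7% at 24 months. None of these markers is known from sclera alone, and the position of a cell in the eye cup was not recorded.

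The rule counts UMIs, so it favours cells with many of them. The median UMI count was 7286 in the scleral-type fibroblasts and 4749 in other fibroblasts at 3 months, and 6077 and 3952 at 24 months. Once each gated cell had been thinned to 1000 UMIs, 3 or more UMIs of the selection genes were left in 265 of 8649 cells at 3 months (3.06%) and in 171 of 5409 at 24 months (3.16%). At that depth the limit of 3 UMIs is much stricter and keeps few of the cells. These shares therefore cannot tell whether the gap between the ages in the share of scleral-type fibroblasts holds at equal depth. Summed over all gated cells, the 4 selection genes made up 447 CPM (counts-per-million of UMIs; 441 to 453) at 3 months and 385 (377 to 393) at 24 months. The cells just inside the limit, with exactly 3 UMIs, numbered 479 at 3 months and 231 at 24 months, and those just outside it, with exactly 2, numbered 787 and 390. In these neighbours Myoc was 919 and 602 CPM at 3 months and 396 and 355 CPM at 24 months. Chad was 64.8 CPM just inside and 19.2 CPM just outside the limit at 3 months, and 22.3 and 12.2 CPM at 24 months, while Coch was 8.42 and 25.6 CPM and then 16.7 and 32.4 CPM. The step at the limit thus differed from gene to gene.

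Against other fibroblasts, 85 of 6664 genes (1.28%) were more than 2-fold higher in scleral-type fibroblasts in both libraries and 56 (0.84%) more than 2-fold lower, with the genes of the rule left out. Since the same cells were chosen by their own transcripts, these counts are a description, and the genes below were taken by size of the ratio. The median ratio of all genes compared was 0.029 on the log2 scale.

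The gene with the largest ratio was Tnmd, which encodes tenomodulin, a membrane glycoprotein of tenocytes and other cells of dense connective tissue. Tnmd was 151 CPM (144 to 157) in scleral-type fibroblasts and 4.11 CPM in other fibroblasts at 3 months, and 112 (103 to 122) and 1.88 CPM at 24 months. Chad, which encodes chondroadherin, a leucine-rich repeat protein that binds collagen and integrins, was 286 and 8.72 CPM at 3 months and 98.2 and 4.80 CPM at 24 months. Thbs4, which encodes the matricellular protein thrombospondin-4 of tendon, was 603 and 59.3 CPM and then 526 and 29.2 CPM. All of these genes were thus higher in scleral-type fibroblasts in each library, as sums over cells of which many held no UMI of them. A UMI of Tnmd was present in 20.2% of scleral-type fibroblasts at 3 months and 17.3% at 24 months. For Chad these shares were 22.4% and 11.5%, and for Thbs4 53.8% and 43.6%. RPE cells held 120.3 CPM of Thbs4 at 3 months and 109 CPM at 24 months, above other fibroblasts and below scleral-type fibroblasts, whereas Tnmd and Chad were below 2 CPM there.

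Of 18 genes listed for tendon, ligament and other dense connective tissue, 11 were detected often enough to compare, and 6 of the 11 were more than 2-fold higher in scleral-type fibroblasts in both libraries (Tnmd, Thbs4, Chad, Col11a1, Mkx and Igfbp6) and 0 lower, with a median log2 ratio of 1.19. Col11a1, the chain of a minor fibrillar collagen that nucleates fibrils, was 229.6 CPM in scleral-type and 95.7 CPM in other fibroblasts at 3 months, and 129.7 and 59.6 CPM at 24 months. Angptl7, a secreted angiopoietin-like protein known from cornea and sclera, was 112 and 1.79 CPM and then 149 and 7.25 CPM, although only 7.499% and 10.4% of scleral-type fibroblasts carried a UMI of it. Cilp2, a cartilage intermediate layer protein, was lower in level, with 23.7 and 11.2 CPM in scleral-type fibroblasts and 1.28 and 0.417 CPM in the others. Of 18 cartilage genes only 2 could be compared, too few to set the list against the tendon genes. Neither passed 2-fold, and Sox9 was lower in level in scleral-type fibroblasts (276 and 238 CPM against 438 and 439). Matn4, which encodes the matrix protein matrilin-4, was 20.3 and 14.7 CPM in scleral-type and 2.41 and 2.29 CPM in other fibroblasts, and Cytl1, a secreted cytokine-like protein, was 24.98 and 30.2 CPM against 3.99 and 13.3 CPM, both in fewer than 10% of the cells. Col2a1, the chain of cartilage collagen II, had 4 UMIs at 3 months and 3 at 24 months.

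**Figure D1:**
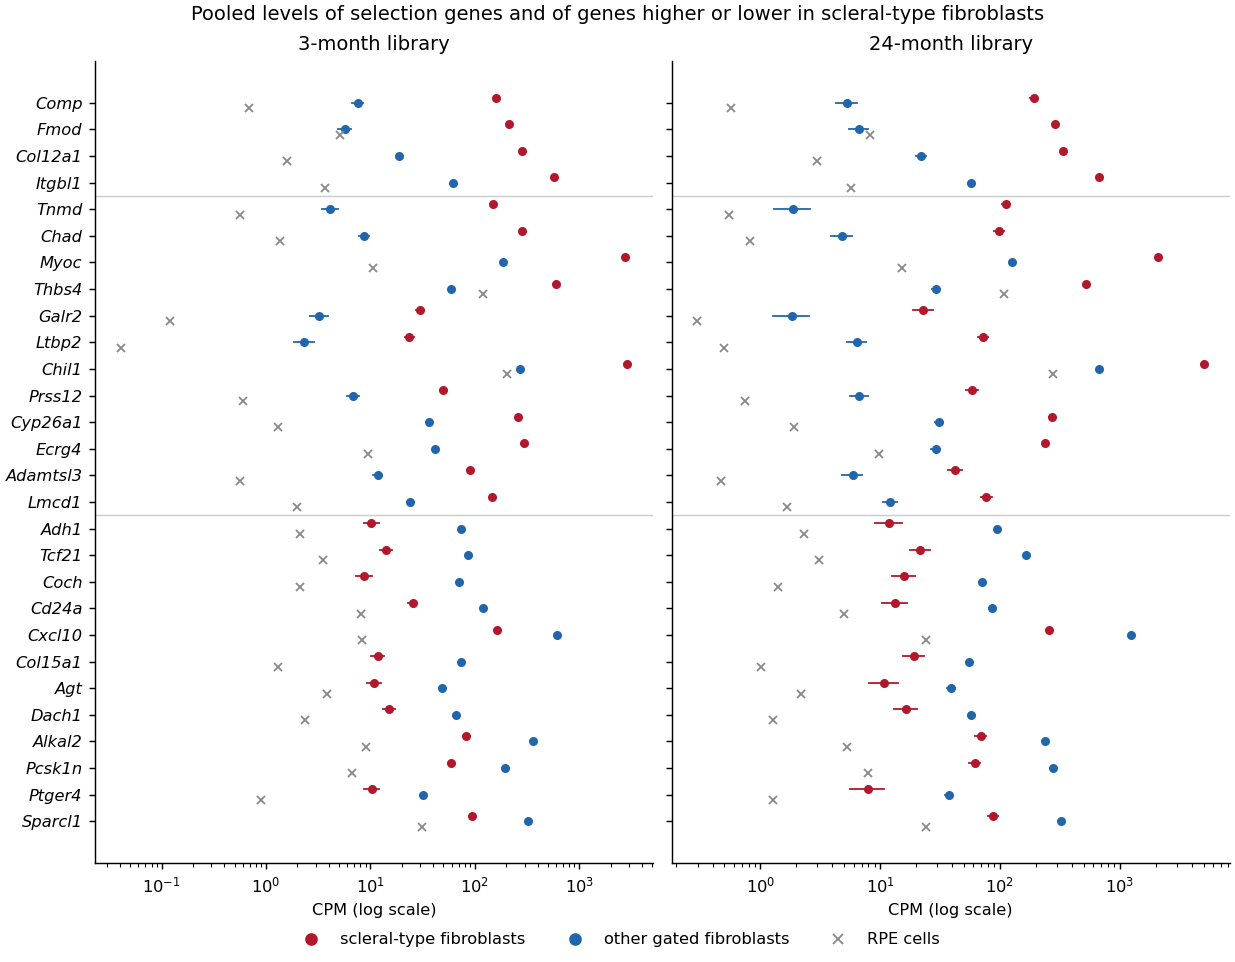
Level in CPM, on a log axis, of the 4 selection genes and of the 12 genes with the largest ratios each way, in scleral-type fibroblasts, other fibroblasts and RPE cells (crosses) of the 3-month and the 24-month library. Points are levels summed over the cells of a library and bars, drawn for the fibroblasts, are exact Poisson 95% intervals. In both libraries Tnmd, Chad and Myoc lie more than 10-fold higher in scleral-type fibroblasts, and Alkal2 and Coch lie higher in the others.

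Small leucine-rich proteoglycans other than those of the rule divided. Of 5 that could be compared, 2 were past 2-fold higher, Chad and Ogn, and the median log2 ratio was 0.80. Ogn, which encodes osteoglycin, was 286 CPM in scleral-type and 99.8 CPM in other fibroblasts at 3 months, and 323 and 97.2 CPM at 24 months. Omd, which encodes osteomodulin, was 38.8 and 24.9 CPM against 8.54 and 9.18 CPM, and was found in too few cells at 24 months to be counted among the 5. Of the gate genes, Lum was the exception, with 1537 and 2256 CPM in scleral-type fibroblasts and 2269 and 2652 CPM in the others, whereas Col1a1, Col1a2 and Dcn were about 2-fold higher in scleral-type fibroblasts.

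Collagens apart from type I were mostly close to other fibroblasts. Of 5 fibril-forming chains compared, Col11a1 alone was past 2-fold, and Col5a1 was 87.2 and 83.4 CPM in scleral-type fibroblasts and 85.9 and 66.5 CPM in the others. Among 10 fibril-associated, beaded and network chains, 1 was past 2-fold higher and 1 lower. The first was Col6a3, of the beaded-filament collagen VI, with 88.8 and 115 CPM against 24.2 and 27.5 CPM. The second was Col15a1, of a basement membrane zone collagen, with 11.8 and 19.2 CPM against 73.3 and 55.4 CPM. None of 16 enzymes and chaperones of collagen processing passed 2-fold, and their median log2 ratio was 0.30.

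Matricellular proteins, which bind matrix and cell surface receptors without building fibrils, held 5 genes past 2-fold higher (Thbs1, Thbs4, Ccn1, Fn1 and Cthrc1) and 1 lower (Sparcl1) of 17. Fn1, which encodes fibronectin, was 64.6 and 246 CPM in scleral-type and 11.97 and 46.5 CPM in other fibroblasts. Cthrc1, a secreted collagen triple helix repeat protein, was 31.0 and 89.5 CPM against 7.98 and 9.70 CPM. Ccn5, a CCN family protein, was 21.8 and 48.5 CPM against 1.46 and 13.6 CPM but was detected in fewer than 10% of scleral-type fibroblasts at 3 months. In the list of microfibril and elastic fibre genes, 1 of 16 passed 2-fold. It was Ltbp2, which encodes a latent TGFβ binding protein of microfibrils, with 23.6 and 72.4 CPM in scleral-type and 2.32 and 6.36 CPM in other fibroblasts.

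Of 11 genes tied to aqueous outflow and eye pressure, 5 were past 2-fold higher and 0 lower, while the median log2 ratio of 0.092 was close to that of all genes. The 5 were Myoc, which is also among the markers written down for these cells, Chil1, Ltbp2, the water channel gene Aqp1 and Svep1, which encodes a large matrix protein. Myoc encodes myocilin, a secreted glycoprotein that is mutated in some open-angle glaucomas. It was 2780 CPM (2753 to 2806) in scleral-type and 185 CPM in other fibroblasts at 3 months, and 2079 (2040 to 2119) and 125 CPM at 24 months. Chil1, which encodes a secreted chitinase-like glycoprotein, was 2894 and 273 CPM at 3 months and 5001 and 676 CPM at 24 months. With every cell thinned to 1000 UMIs, a UMI of Myoc was present in 39.2% and 32.4% of scleral-type fibroblasts, in 7.10% and 5.72% of the others, and in 1.94% and 2.48% of RPE cells. The thinned share of cells with Chil1 was 45.8% and 60.5% in scleral-type fibroblasts, 10.2% and 22.0% in the others, and 18.4% and 23.6% in RPE cells, so that the share in other fibroblasts did not exceed that in RPE cells.

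The other genes with the largest ratios had varied roles. Cyp26a1, which encodes an enzyme that degrades retinoic acid, was 258 and 270.5 CPM in scleral-type and 36.3 and 31.0 CPM in other fibroblasts. Ecrg4, which encodes the secreted peptide precursor augurin, was 299 and 239.9 CPM against 41.9 and 29.1 CPM. Galr2 (galanin receptor 2), Prss12 (the serine protease neurotrypsin), Adamtsl3 (an ADAMTS-like matrix protein) and Lmcd1 (a LIM domain protein) were between 6.03-fold and 12.6-fold higher in each library. Foxc2, a forkhead transcription factor, was 49.6 and 31.0 CPM against 12.8 and 6.10 CPM. Scleral-type fibroblasts also held more of 2 genes usually read as mural cell markers. Rgs5, a regulator of G protein signalling, was 813 and 835 CPM against 163 and 133 CPM, and Tagln, of smooth muscle, was 212 and 436 CPM against 82.9 and 122 CPM. The mural marker Notch3 went the other way (24.8 and 23.8 against 44.5 and 31.5 CPM). Aldh3a1, an aldehyde dehydrogenase abundant in cornea, was 217 and 119 CPM against 49.1 and 22.1 CPM, while the other 6 genes of the list of corneal and epithelial markers were found in under 5% of the cells.

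Genes lower in scleral-type fibroblasts were led by Adh1, an alcohol dehydrogenase that oxidises retinol, with 10.2 CPM in scleral-type and 73.6 CPM in other fibroblasts at 3 months and 11.8 and 94.8 CPM at 24 months. Tcf21, a basic helix-loop-helix transcription factor of mesenchyme, was 14.2 and 21.6 CPM against 86.1 and 164 CPM. Coch, which encodes the matrix protein cochlin, was 8.77 and 15.7 CPM against 71.0 and 70.8 CPM. Alkal2, which encodes a ligand of the ALK and LTK receptors, was 82.2 and 69.3 CPM against 362 and 239 CPM. Both are on a list of 16 candidate markers of choroidal fibroblasts, of which 9 could be compared. Alkal2 and Coch were the 2 past 2-fold lower, Foxc2 and Crabp2, a retinoic acid binding protein (127 and 51.4 CPM against 48.2 and 17.3 CPM), were the 2 past 2-fold higher, and the median log2 ratio was -0.25. At least 3 UMIs of Alkal2 and Coch in sum were present in 168 scleral-type fibroblasts at 3 months (8.29%) and 55 at 24 months (6.60%), against 27.3% and 15.8% of other fibroblasts. The remaining genes of this group were Cd24a, Col15a1, Agt, Dach1, Pcsk1n, Ptger4, Sparcl1 and Cxcl10.

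Inflammatory genes had a median log2 ratio of -0.84 over 11 compared, of which 1 was past 2-fold lower in both libraries and 0 higher. The 1 was Cxcl10, a chemokine induced by interferon, with 162 and 257 CPM in scleral-type and 619 and 1236 CPM in other fibroblasts. The eosinophil chemokine Ccl11 was 19.5 and 92.8 CPM against 153 and 790.5 CPM, and was found in under 10% of scleral-type fibroblasts. Cxcl14, also found in under 10% of them, went the other way, with 18.3 and 65.95 CPM against 0.774 and 2.14 CPM. Immediate early genes, whose transcripts appear within minutes of a stimulus such as tissue dissociation, had a median log2 ratio of -0.46 over 23 genes. Interferon-stimulated genes had a median of -0.44 over 32, with 0 genes past 2-fold in either direction.

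Levels of some of these genes within the gated fibroblasts followed the number of UMIs of the selection genes. Over bins of 0, 1, 2, 3, 4 to 5, 6 to 9 and 10 or more such UMIs, Myoc was 91.3, 185, 602, 919, 1365, 1834 and 6610 CPM at 3 months and 64.0, 210, 355, 396, 690, 1379 and 5307 CPM at 24 months. Myoc was higher in each bin than in the bin before it, in both libraries. Alkal2 took the opposite course at 3 months, from 420 CPM in cells with no such UMI through 302, 215, 154, 106 and 56.2 to 26.6 CPM in cells with 10 or more. At 24 months Alkal2 went from 277 to 16.6 CPM over the same bins, with 1 small step upward, from 74.6 CPM at 4 to 5 UMIs to 76.7 at 6 to 9. Other genes did not follow the bins evenly. Coch was 84.2 CPM with no such UMI and 8.42, 12.7, 4.18 and 9.29 CPM in the 4 bins from 3 UMIs on at 3 months, and Chad at 24 months was 22.3, 14.4, 31.4 and 289.9 CPM in these bins. Tnmd was concentrated at the top, with 70.1 CPM at 6 to 9 UMIs and 459 CPM at 10 or more at 3 months, and 34.0 and 351 CPM at 24 months. The bins also differ in depth, with median UMI counts from 4446 to 8609 at 3 months and from 3777 to 7101 at 24 months.

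**Figure D2:**
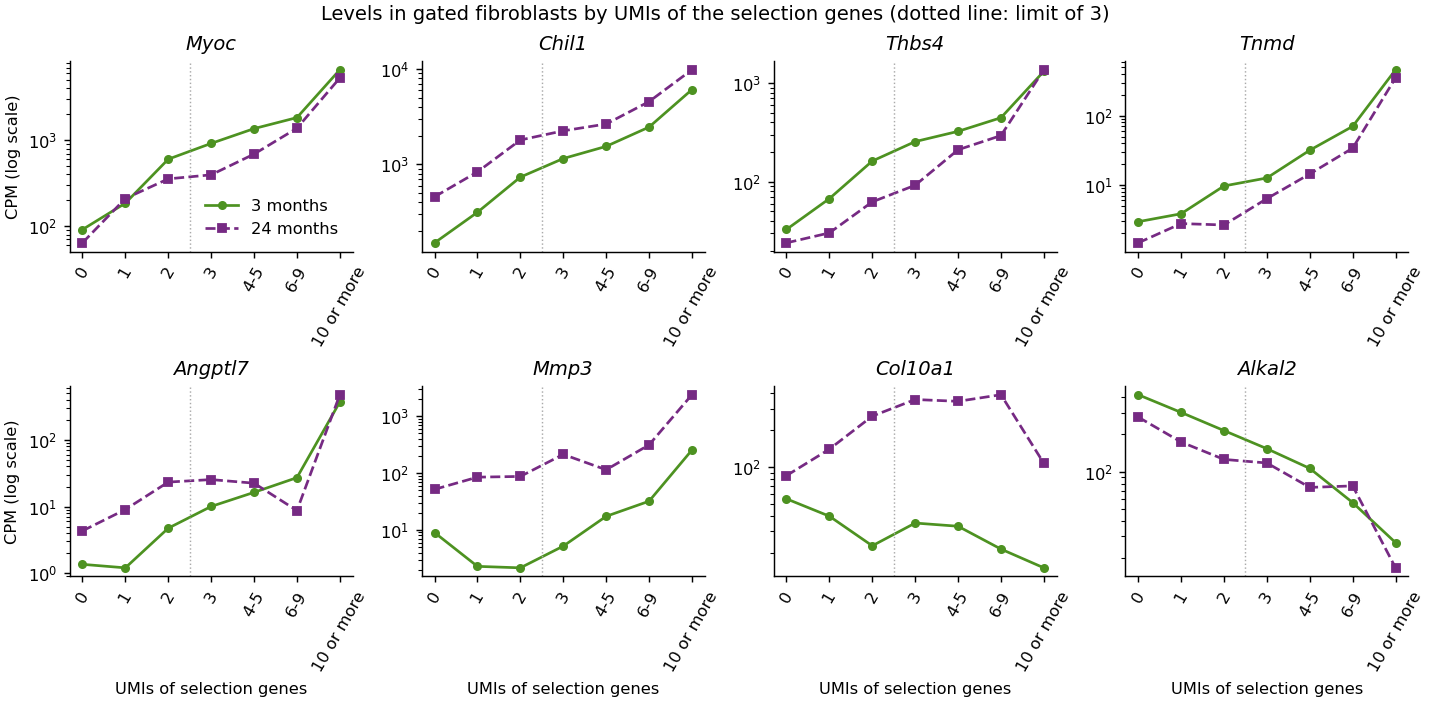
Level in CPM, on a log axis, of 8 genes in gated fibroblasts grouped by their UMIs of Comp, Fmod, Col12a1 and Itgbl1 (0, 1, 2, 3, 4 to 5, 6 to 9, 10 or more), with 1 line for each library. Cells right of the limit of 3 UMIs are the scleral-type fibroblasts. Myoc climbs from 91.3 to 6610 CPM at 3 months, while Alkal2 goes from 420 to 26.6 CPM.

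The scleral-type fibroblasts were not uniform. Splits of the cells by the presence of a transcript, chosen after their values had been seen, are given as a description. A UMI of Angptl7 was present in 152 cells at 3 months (7.50%, 6.39 to 8.73) and 87 at 24 months (10.4%, 8.45 to 12.7), and median depth was about the same in cells with and without it (7360 and 7281 UMIs at 3 months, 6068 and 6078 at 24 months). The chemokine Cxcl14 was 224 CPM in cells with Angptl7 and 1.44 in those without at 3 months, and 546 and 9.22 CPM at 24 months. Mmp3, which encodes the matrix metalloproteinase stromelysin-1, was 871 and 15.8 CPM at 3 months and 5868 and 227 CPM at 24 months. Scx, the tendon transcription factor scleraxis, was 39.3 and 5.46 CPM and then 33.5 and 2.85 CPM. Levels of Tnmd and Chad were also higher in cells with Angptl7, with Tnmd at 781 against 98.7 CPM at 3 months and 444 against 72.9 CPM at 24 months, though these few cells held 895 of its UMIs against 1373 in the cells without at 3 months, and 239 against 332 at 24 months. Levels of the rule's own genes were higher in them too, with Fmod at 1014 against 149 CPM at 3 months. Cells with Angptl7 held less Cpm, which encodes carboxypeptidase M (9.60 against 90.1 CPM at 3 months, 3.72 against 74.0 at 24 months), and less Has1, a hyaluronan synthase (6.11 against 52.4, then 14.9 against 94.6 CPM).

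A UMI of Col10a1, which encodes the short-chain collagen X known from hypertrophic cartilage, marked the opposite side. It was present in 187 cells at 3 months (9.22%, 8.001 to 10.6) and in 290 at 24 months (34.8%, 31.6 to 38.2). Cells with Col10a1 were deeper, with median UMI counts of 8354 against 7174 at 3 months and 6972 against 5437 at 24 months. They held less Tnmd (26.9 against 165 CPM at 3 months, 13.2 against 178 at 24 months) and less Myoc (1239 against 2963, then 365 against 3225 CPM). Levels were higher in them for the phospholipase gene Pla1a, with 18.2 against 3.57 CPM at 3 months and 97.0 against 32.4 CPM at 24 months. Alkal2 was 169.8 against 71.8 CPM and then 109 against 42.9 CPM. Desmin (Des), an intermediate filament gene of muscle, was 111 against 56.7 CPM and then 245 against 94.3 CPM.

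**Figure D3:**
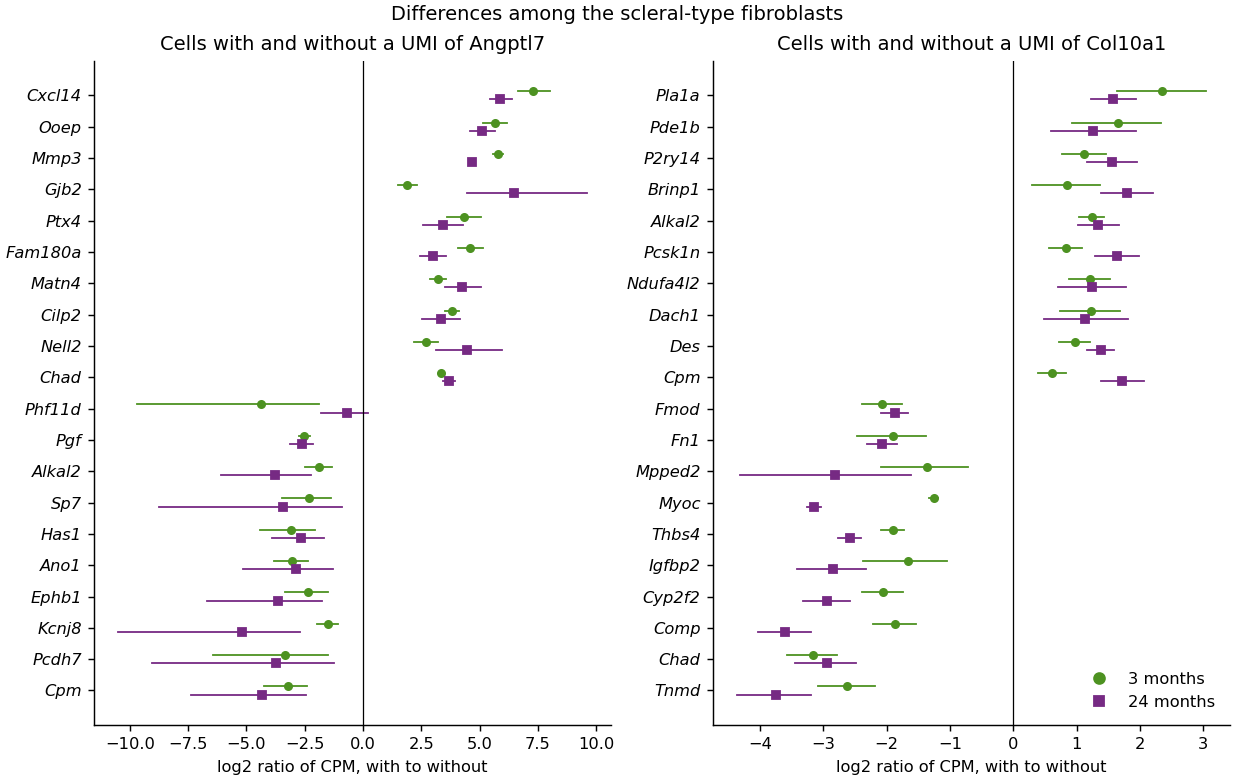
Log2 ratio of the level in scleral-type fibroblasts with a UMI of Angptl7 (left) or Col10a1 (right) to the level in those without, for the 10 genes with the largest ratios each way. Points are the 3-month and the 24-month library, bars are exact 95% intervals for counting error only, and 0 marks equal levels. Cxcl14 and Mmp3 lie right of 0 in the left panel, and Tnmd, Chad and Myoc lie left of 0 in the right panel.

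The cells with a UMI of Comp or Fmod stood nearest to the name of the population. Sfrp2, which encodes a secreted Wnt antagonist, was 191 CPM in them and 8.58 CPM in the remaining scleral-type fibroblasts at 3 months, and 322 and 34.0 CPM at 24 months. Myoc was 4140 and 1213 CPM and then 3289 and 639.6 CPM. Penk, which encodes the opioid precursor proenkephalin, was 259.8 and 39.2 CPM and then 211 and 48.6 CPM. Tnmd was 259.1 and 25.73 CPM and then 197.3 and 10.75 CPM, and Chad was 471.5 and 72.05 CPM and then 170.9 and 11.61 CPM. Even the cells without either gene were above other fibroblasts for Myoc, whose level there was 185 and 125 CPM.

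Between the ages, 139 of 7720 genes (1.8%) were more than 2-fold higher in scleral-type fibroblasts at 24 months than at 3 months and 99 (1.28%) more than 2-fold lower, with a median log2 ratio of -0.073. The ratios compare 1 library with 1 other, and age cannot be told apart from any other difference between the libraries. The selection genes themselves had log2 ratios of 0.26 for Comp, 0.43 for Fmod, 0.26 for Col12a1 and 0.22 for Itgbl1, in cells that the rule required to carry them. In the 101 and 133 cells that held no UMI of the macrophage and melanocyte genes, the ratio of Comp was 1.42.

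Most inflammatory and complement genes were higher in level at 24 months. All 11 inflammatory genes compared were above 0, 7 of them past 2-fold, with a median of 1.37, and all 10 complement genes were above 0, 4 of them past 2-fold, with a median of 0.97. Macrophage markers moved the same way, with 5 of 7 past 2-fold higher and a median of 1.28. For these lists and those below, the share of all genes above 0 is not given, and the median over all genes compared was -0.073. Il1rn, which encodes the interleukin-1 receptor antagonist, was 1.66 CPM at 3 months and 72.2 CPM at 24 months in scleral-type fibroblasts, a log2 ratio of 5.44 (4.86 to 6.09). In cells without a macrophage or melanocyte UMI its log2 ratio was 2.95. C3, the central complement component, was 16.3 and 181 CPM, and C4b of the classical pathway was 12.5 and 130.1 CPM. Serpina3n, an acute-phase serine protease inhibitor, was 92.1 and 691 CPM, and at 1000 UMIs a cell it was found in 7.48% of scleral-type fibroblasts at 3 months and 39.9% at 24 months. These genes were also higher at 24 months in other fibroblasts, where Il1rn was 4.88 and 78.5 CPM, C3 19.4 and 114 CPM and Serpina3n 57.1 and 364 CPM. In RPE cells the level of Serpina3n was 6.54 and 12.6 CPM.

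Some genes had a larger ratio in scleral-type than in other fibroblasts, a difference for which no test was possible. Col10a1 was 25.7 CPM at 3 months and 291 CPM at 24 months in scleral-type fibroblasts and 46.9 and 115 CPM in the others, with log2 ratios of 3.50 (3.34 to 3.67) and 1.29 (1.20 to 1.39). Thinned to 1000 UMIs, a UMI of Col10a1 was present in 2.13% and 14.9% of scleral-type fibroblasts and in 0.13% and 0.31% of RPE cells. Summed over the cells, Col10a1 was thus lower than in other fibroblasts at 3 months and higher than in them at 24 months. The higher level did not hold for all scleral-type fibroblasts. At 24 months Col10a1 was 357, 345 and 390.5 CPM at 3, 4 to 5 and 6 to 9 UMIs of the selection genes. It was 107.5 CPM at 10 or more, and 261 CPM in cells just outside the limit, with 2. Sfrp4, a secreted Wnt antagonist, was 8.84 and 158 CPM in scleral-type and 23.1 and 41.9 CPM in other fibroblasts, with log2 ratios of 4.16 (3.89 to 4.43) and 0.86 (0.71 to 1.00). Few cells carried it, 1.28% and 11.9% of scleral-type fibroblasts and 0.84% and 3.32% of the others. Its ratio in scleral-type fibroblasts ranged from 3.54 to 7.82 over the alternative settings listed below. Pla1a was 5.12 and 58.3 CPM against 18.8 and 56.7 CPM, and the sodium channel gene Scn7a was 2.59 and 24.7 CPM against 10.0 and 28.6 CPM. The log2 ratio of Scn7a was 3.26 in scleral-type fibroblasts and 1.51 in the others, but it was 1.06 in the scleral-type fibroblasts without a macrophage or melanocyte UMI and 6.04 at 1000 UMIs a cell.

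**Figure D4:**
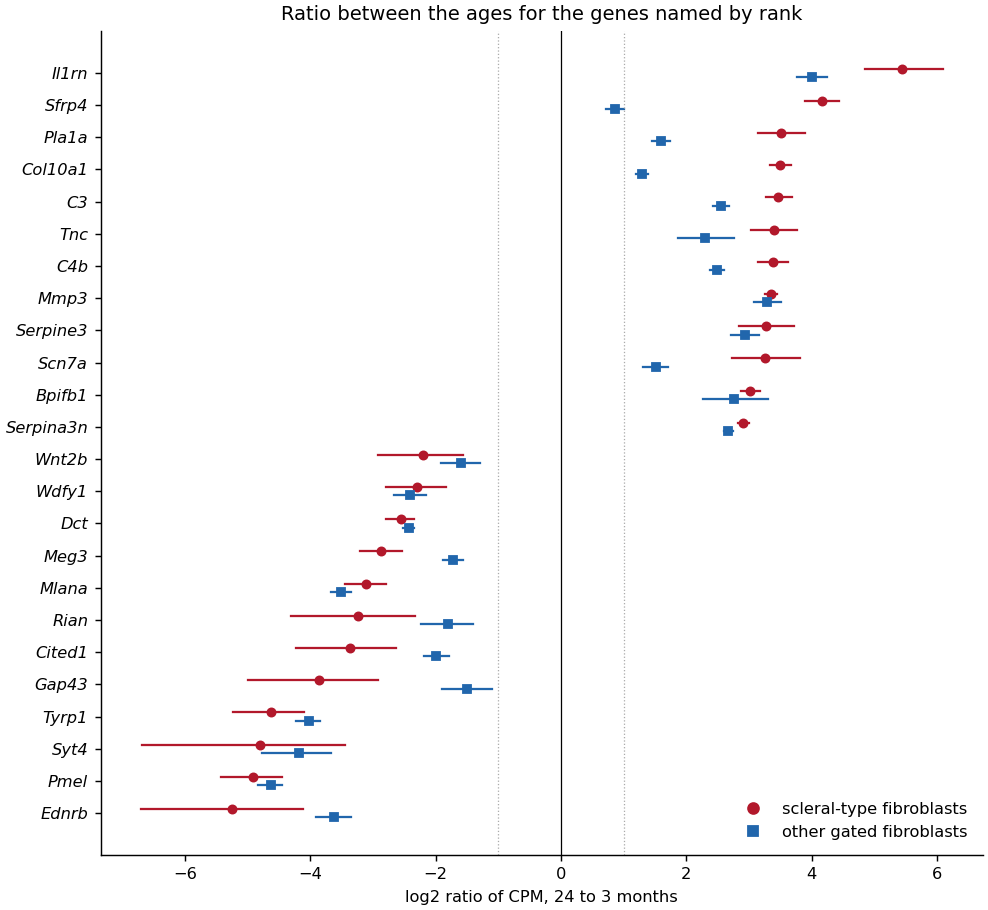
Log2 ratio of the 24-month to the 3-month level in scleral-type fibroblasts and in other fibroblasts, for the 12 genes with the largest ratios each way. Bars are exact 95% intervals for counting error only, and 0 marks equal levels. Col10a1 and Sfrp4 have higher ratios in scleral-type than in other fibroblasts, while the pigment cell genes Pmel, Tyrp1 and Mlana are low in both.

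Matrix genes differed in both directions. Mmp3 was 80.8 CPM at 3 months and 823 CPM at 24 months (log2 ratio 3.35, 3.25 to 3.44), and 6.37 and 62.5 CPM in other fibroblasts. A UMI of Mmp3 was present in 5.5% and 21.7% of scleral-type fibroblasts. The 152 and 87 cells with Angptl7 held 998 of its 1217 UMIs at 3 months and 3157 of 4193 at 24 months. Tnc (tenascin-C), a matricellular protein of tendon and wounds, was 5.38 and 56.7 CPM (log2 ratio 3.40, but 1.43 in cells without a macrophage or melanocyte UMI), Fn1 was 64.6 and 246 CPM, and the metalloproteinase inhibitor Timp1 was 82.8 and 431 CPM. Of 22 matricellular genes, 6 were past 2-fold higher and 1 lower, with a median of 0.25. Ltbp2 was 23.6 and 72.4 CPM, and Lox, which encodes the crosslinking enzyme lysyl oxidase, was 141 and 294 CPM. Among the fibril-forming collagens 0 of 7 passed 2-fold and 5 were below 0, with Col1a1 at 1528 and 1157 CPM and Col3a1 at 556 and 661 CPM. Of 12 tendon and ligament genes 9 were below 0 and the median was -0.31, against -0.073 over all genes compared. Chad was the 1 past 2-fold lower, with a log2 ratio of -1.54 (-1.68 to -1.41), which was -0.50 and no longer past 2-fold in cells without a macrophage or melanocyte UMI. Cpxm2, a carboxypeptidase-like protein, was the 1 past 2-fold higher, with 162 and 459 CPM.

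Bpifb1, a secreted lipid-binding protein of mucosal surfaces, was 31.9 CPM at 3 months and 259 CPM at 24 months in scleral-type fibroblasts and 1.22 and 8.29 CPM in the others, so that it was higher in scleral-type fibroblasts in each library, though found in fewer than 10% of cells at 3 months. Cells with Angptl7 held 95 of its 481 UMIs in scleral-type fibroblasts at 3 months and 804 of 1319 at 24 months. Chil1 was 2894 and 5001 CPM, while Myoc was 2780 and 2079 CPM (log2 ratio -0.42, -0.45 to -0.39). The water channel gene Aqp1 was 29.6 and 101 CPM. Serpine3, a serpin, was 3.79 and 36.5 CPM in scleral-type fibroblasts but 166 and 683 CPM in RPE cells, far above the fibroblasts at both ages. Interferon-stimulated genes were above 0 for 30 of 35, with a median of 0.33, and the 2 past 2-fold were the MHC class I genes H2-K1, with 201 and 509 CPM, and H2-D1, with 431 and 870 CPM. Immediate early genes were below 0 for 21 of 23, with 3 past 2-fold lower, all of the heat shock response. They were Dnajb1, with 901 and 350.2 CPM, Hspa1b, with 191 and 75.8 CPM, and Hspa1a, with 216 and 102 CPM. For senescence, cell cycle and collagen processing genes the medians were 0.049, -0.278 and 0.027.

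Genes lower at 24 months were led by those of pigment cells. Pmel, a melanosome matrix protein, was 219 CPM at 3 months and 7.26 CPM at 24 months in scleral-type fibroblasts, 306 and 12.3 CPM in other fibroblasts and 177 and 23.0 CPM in RPE cells. All 5 melanocyte markers compared were past 2-fold lower, and the 7 of the list summed to 756 and 71.4 CPM in scleral-type fibroblasts, 1114 and 120 in the others and 1445 and 569 in RPE cells. Ednrb, the endothelin receptor B of melanocytes and glia and one of these markers, was 45.0 and 1.18 CPM, resting on 6 UMIs at 24 months. Macrophage markers took the opposite direction, with 5 of 7 past 2-fold higher, and the sum of the 10 on the list was 228 and 670 CPM in scleral-type fibroblasts, 355 and 963 in the others and 279 and 802 in RPE cells. RPE markers summed to 3338 and 6268 CPM in scleral-type fibroblasts and 5012 and 9616 CPM in the others, and Ttr, the most abundant of them, had a UMI in nearly every scleral-type fibroblast. The sums of these 3 lists were thus lower in scleral-type than in other fibroblasts in each library, and moved between the ages in the same direction in both sets. Mural markers, by contrast, summed to 1603 and 1788 CPM in scleral-type and 757 and 735 CPM in other fibroblasts. The part of other cell types in the ratios was not tested. In scleral-type fibroblasts photoreceptor markers summed to 5.71 and 3.53 CPM, skeletal muscle markers to 5.71 and 4.12 CPM and lymphocyte markers to 2.19 and 14.9 CPM.

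Of the genes lower at 24 months that are not pigment cell markers, Gap43, a growth-associated protein of neurons and glia, was 25.7 and 1.77 CPM in scleral-type fibroblasts and 9.41 and 3.34 CPM in the others. Meg3 and Rian, long noncoding RNAs of the imprinted Dlk1-Dio3 region, were 115 and 15.7 CPM and 18.5 and 1.96 CPM. Both were lower at 24 months in other fibroblasts too (63.9 and 19.3 CPM for Meg3). Wnt2b, a Wnt ligand of the ciliary margin and periocular tissue, was 19.1 and 4.12 CPM, and Wdfy1, an endosomal adaptor, was 39.6 and 8.05 CPM. Cd34, a sialomucin of fibroblasts and progenitors, was 230.3 and 100.3 CPM in scleral-type fibroblasts and 147 and 134 CPM in the others, and Aldh1a2, which makes retinoic acid, was 206 and 96.0 CPM against 251 and 111 CPM.

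The bulk libraries compared old mice without and with LATS inhibition, and they measured the genes of scleral-type fibroblasts in other samples than those that chose the cells. In bulk RNA, fewer cells of a type and less RNA per cell cannot be told apart. The selection gene Fmod was 111 and 180 TPM (transcripts-per-million) in the 2 control libraries and 267 and 770 TPM in the 2 TRULI libraries, a log2 fold change of 1.67 ± 0.52 (SE) on the log2(TPM + 1) scale. Col12a1 was 16.9 and 36.7 TPM in control and 45.0 and 120 TPM in TRULI libraries, and Itgbl1 was 57.7 and 88.4 TPM and then 119 and 222 TPM. Both TRULI libraries were thus above both control libraries for these 3 genes, an order that 25.2% of the 15132 genes tested showed and 18.1% showed in the opposite direction. Comp, with 35.4 and 61.6 TPM in control and 57.2 and 143 TPM in TRULI libraries, overlapped.

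Myoc was 289 and 641 TPM in control and 941 and 1541 TPM in TRULI libraries (log2 fold change 1.48 ± 0.42). Tnmd was 41.5 and 68.5 TPM and then 95.5 and 276 TPM, and Chad was 10.3 and 29.6 TPM and then 82.98 and 122 TPM. Ltbp2 was 8.54 and 9.62 TPM in control and 30.8 and 63.3 TPM in TRULI libraries, with a log2 fold change of 2.17 ± 0.35 and the lowest adjusted p of the 12 genes with the largest ratios in scleral-type fibroblasts, 0.171 (limma with Benjamini-Hochberg adjustment over all genes). For 11 of these 12 genes both TRULI libraries were above both control libraries, an order shown by 25.2% of all genes tested. For Thbs4 (391 and 430 TPM, then 320 and 455 TPM) they overlapped. None of the 12, of the selection genes or of the gate genes passed the test at an adjusted p under 0.05, at which limma called 3 genes higher (0.0198%) and 5 lower (0.033%), with 1810 genes at an unadjusted p under 0.05. The second TRULI library held the highest value of every selection gene.

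Among the proteoglycans, here with those of the rule kept in the list, 11 of 14 had both TRULI libraries above both controls and 0 below. Their median log2 fold change was 1.12. Over all genes tested, 25.2% were above by this order and 18.1% below. Bgn (biglycan) was 472 and 608 TPM in control and 967 and 1591 TPM in TRULI libraries. Of the gate genes, Col1a1 was 43.0 and 49.8 TPM and then 97.4 and 188 TPM, whereas Dcn (1579 and 1866 TPM, then 1470 and 1848 TPM) and Lum (182 and 188 TPM, then 183 and 163 TPM) overlapped. Of 16 tendon and ligament genes tested, 7 had both TRULI libraries above both controls and 1 had both below. The others overlapped, and the median log2 fold change was 0.336. The 1 below was Angptl7, with 379 and 353 TPM in control and 82.5 and 178 TPM in TRULI libraries. Mmp3, which went with Angptl7 in single cells, was 456 and 436 TPM in control and 137 and 177 TPM in TRULI libraries (log2 fold change -1.52 ± 0.15, adjusted p = 0.111 by limma). Col10a1, which marked other scleral-type fibroblasts, was 6.97 and 7.67 TPM and then 24.9 and 26.1 TPM (log2 fold change 1.67 ± 0.19, adjusted p = 0.131 by limma). Fmod, Tnmd, Chad and Myoc, whose levels were higher in cells with Angptl7 and lower in cells with Col10a1, had the same order as Col10a1 here, so the bulk values did not follow that division. The choroidal-type markers Alkal2 (3.69 and 8.72 TPM, then 7.58 and 3.76 TPM) and Coch overlapped between the groups.

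Markers of other cell types also differed between these libraries. Mural markers had both TRULI libraries above both controls for 7 of 8, summing to 307 and 370 TPM in control and 552 and 869 TPM in TRULI libraries, and 6 of 7 melanocyte markers did so. Skeletal muscle markers summed to 275 and 36.8 TPM in control and 63.7 and 7.79 TPM in TRULI libraries, and photoreceptor markers to 1500 and 763 TPM and then 458 and 779 TPM. Interferon-stimulated genes were below for 37 of 44 and inflammatory genes for 13 of 20. Of all genes tested, 25.2% had both TRULI libraries above both controls and 18.1% had both below. The part of tissue composition in the values of the scleral-type genes was not tested.

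**Figure D5:**
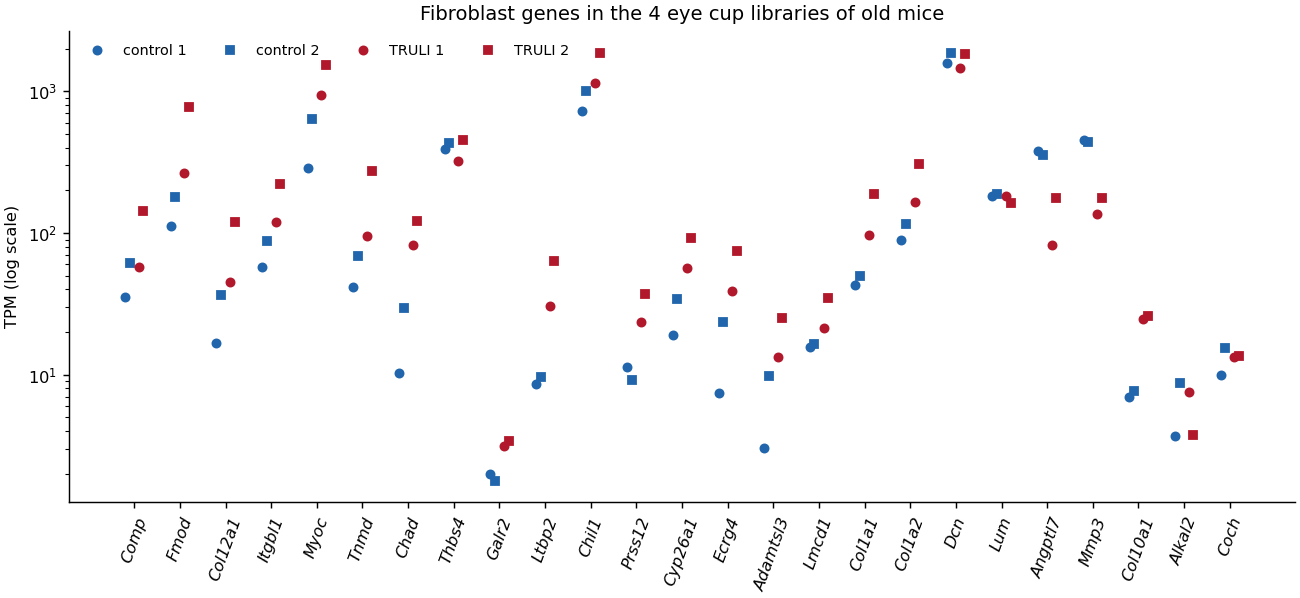
TPM, on a log axis, of the selection genes, Myoc, the other genes highest in scleral-type fibroblasts, the gate genes and Angptl7, Mmp3, Col10a1, Alkal2 and Coch in the 2 control and the 2 TRULI libraries of old mice. Each point is 1 library. Both TRULI points lie above both control points for Fmod, Myoc, Chad and Ltbp2, the groups overlap for Comp and Thbs4, and the order is opposite for Mmp3 and Angptl7.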

How the data were processed

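The single-cell libraries were mapped by the authors to mm10 with Cell Ranger 6.0.1, and the deposited matrices hold unnormalized UMI counts of 32285 genes for 16463 barcodes at 3 months and 17835 at 24 months. Following the study's methods, barcodes with fewer than 200 genes, over 10% mitochondrial UMIs or any haemoglobin UMI were dropped, which left 15667 and 15198 cells. The paper reports fewer cells in all after the filters it names, so the set of cells here is not the same. The libraries shared 300 of the barcodes kept here, of which 1 was a scleral-type fibroblast in both. Counts of each set were summed within a library and scaled to CPM, with exact Poisson intervals for levels, exact binomial (Clopper-Pearson) intervals for shares and exact conditional intervals for ratios of counts. UMI totals of the scleral-type fibroblasts were 15052607 and 5094415. Genes found in 10% or more of the cells of a set under comparison were used, by size of the ratio and without a test. Scrublet (in scanpy 1.11.5) set a score limit of 0.654 at 3 months, which marked 0 cells, and of 0.286 at 24 months, and the latter was used for both. It marked 68 and 4 scleral-type fibroblasts as possible doublets, which were kept.

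For the bulk libraries the authors deposited TPM values, and the submitters' processing notes name STAR, RSEM and GRCm39 without roles. Sequencing depth is therefore unknown for them. Genes with at least 1 TPM in at least 2 of the 4 libraries were tested on log2(TPM + 1) with limma 3.58.1 (mean-variance trend, not robust), and p-values were adjusted by Benjamini-Hochberg over all genes. This scale understates the changes of low genes. Nothing in the labels says that the libraries of a group came from separate mice, so the p-values measure only the spread between them. Scripts were tested on simulated data.

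The cells' rule and the gene lists were chosen with earlier results of these data known. Named genes were the 12 largest ratios each way in each single-cell comparison, up to 4 genes of each list with the largest ratio, and the genes of the rule, together with genes found to divide the cells, which were picked after their values were seen. Genes flagged for a closer look below were picked apart from these. Unnamed gene models, mitochondrial and ribosomal protein genes were counted and not named. Some genes that this rule picks are not reported here. The 9 human ARPE-19 libraries were not used here. Alternatives were other UMI limits, leaving out each selection gene, thinning, doublet and mitochondrial filters, cells without macrophage and melanocyte UMIs, other scalings, detection limits, pseudocounts, a replicate block and leaving out each bulk library.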

Additional observations from a re-analysis of the deposited data

Results flagged for a closer look

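Among the 7720 genes compared between the ages, 4 were flagged, with those of the rule and unnamed gene models left out. In each of the 4, the level at 24 months stood above that at 3 months in scleral-type fibroblasts and below it in other fibroblasts, or the reverse. The 4 were picked by these values, in the only library of each age. Other genes with opposite but smaller ratios were not flagged, such as Prss12 (log2 ratio 0.226 in scleral-type and -0.026 in other fibroblasts). The difference between the sets of cells was not tested, and the values carry counting error only. Pi16, which encodes a peptidase inhibitor of adventitial fibroblasts, was 329 and 188 CPM in scleral-type fibroblasts (log2 ratio -0.81) and 168 and 458 CPM in other fibroblasts (1.44). Edil3, which encodes an integrin ligand of the matrix, was 21.1 and 30.2 CPM in scleral-type fibroblasts (log2 ratio 0.52) and 13.7 and 9.64 CPM in the others (-0.51). Nog, which encodes the BMP antagonist noggin, was 16.9 and 11.2 CPM in scleral-type fibroblasts (log2 ratio -0.59) and 9.29 and 14.96 CPM in the others (0.69). Sema3c, a secreted semaphorin, was 84.7 and 58.9 CPM in scleral-type fibroblasts (log2 ratio -0.52) and 62.1 and 101 CPM in the others (0.70).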

How the results depend on the processing

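The share of scleral-type fibroblasts followed the rule. At 3 months it was 31.0% with at least 2 UMIs, 13.3% with at least 5, 3.06% after thinning to 1000 UMIs, and 20.8%, 21.3%, 18.6% and 9.42% with Comp, Fmod, Col12a1 or Itgbl1 left out of the rule. At 24 months it was 21.9%, 8.28% and 3.16%, and 13.7%, 12.4% and 6.67% without Fmod, Col12a1 or Itgbl1. Against other fibroblasts, 95 genes were lower with at least 5 UMIs and 94 in the 3-month library alone. Thinning, which left 1446 genes to compare, gave 28 higher and 26 lower, and all genes with at least 20 UMIs (13309) gave 232 and 279. Between the ages, thinning (1621 genes) gave 39 higher and 26 lower, and genes with at least 20 UMIs (13161) gave 480 and 557. Cells without a macrophage or melanocyte UMI, 101 and 133 of the scleral-type fibroblasts, gave 280 and 419. There the log2 ratio of Il1rn was 2.95 and that of Tnc 1.43, and the direction turned for Thbs4 (0.045), Galr2 (0.94), Ecrg4 (0.21), Emcn (-0.57), Gjb2 (0.70) and Mcm6 (0.46). No intervals were computed for the ratios in these few cells. A summed count of 0 UMIs was set to 3 before such a ratio was taken, and the UMIs behind these ratios are not given here. Epyc turned with at least 5 UMIs (0.14) and in cells with a UMI of Comp or Fmod (0.36), a setting chosen after seeing the data. The cause was not tested. TMM and median-of-ratios scaling moved all log2 ratios alike, by a factor whose log2 was -0.047 and -0.046. TRULI calls of limma, 8 as reported, numbered 0 with a replicate block (1799 genes at an unadjusted p under 0.05) and 0 with a pseudocount of 0.1 (1748 genes). Without a filter on low values there were 891 over 56832 genes, of which 33964 were listed at 0 in all 4 libraries. They ranged from 1 (without control replicate 2) to 13 (without TRULI replicate 2) with a library left out, where the log2 fold change of Dcn ranged from -0.22 (without TRULI replicate 2) through 0.062 (without control replicate 2) to 0.11 (without TRULI replicate 1), and that of Thbs4 from -0.36 to 0.15 (without TRULI replicate 2 and 1). The differences of replicate 1 minus replicate 2 in the control and in the TRULI libraries correlated at 0.056 over genes. Whether same-numbered replicates belonged together cannot be told from this value.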
